A study of Mus musculus with 9 samples.

Results

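This report describes 10 mouse genes of insulin signalling, FoxO transcription factors and the polyol pathway in peritoneal cells of diabetic and control mice. The genes were Igf1, Insr, Igf1r, Irs2, Foxo1, Foxo3, Txnip, Akr1b3, Akr1b8 and Ager, and they were looked up by symbol among the 41096 genes of the expression table. Of the 10, 9 were found in the table's own name column. Akr1b3 was not named there, and it was matched through a UniProt entry called Akr1b1, which RefSeq lists as a synonym of Akr1b3, so its identity rests on that match.

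All mice lacked the apolipoprotein E gene (Apoe-/-), a background in which a fatty diet raises plasma cholesterol. In the diabetic group (4 samples), streptozotocin, a toxin of the insulin-producing beta cells, was injected at 40 mg/kg on 5 consecutive days from 8 weeks of age, and the control group (5 samples) received citrate buffer. A western diet was fed to both groups for 8 weeks. Cells were washed from the peritoneal cavity with 10 mL of PBS 3 days after an injection of 1.5 mL of 3% thioglycollate, a sterile irritant that recruits leukocytes there. No sorting or adherence step is described, and the labels do not say whether a sample was 1 mouse or a pool, so p-values cover only the spread among these 9 samples, which may be technical.

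RNA-seq values are FPKM, fragments scaled to gene length and to sequencing depth, so that levels of different genes can be compared per length. The reads in genes numbered 14156421 to 16169060 per sample. The labels call the cells peritoneal macrophages. The macrophage markers Adgre1, Csf1r and Cd68 were well expressed, while Itgam, which encodes the integrin CD11b, was near 0 at 0.0583 to 0.246 FPKM. Each Itgam value rested on 4 to 19 reads, and why it was so low was not tested. Another listed macrophage marker, Lyz2, was not found by name. Lymphocyte RNA was also present and differed between groups: 16 of the 17 tested T cell markers rose in the diabetic samples, as did 4 of the 14 tested B cell markers. The summed level of the T cell markers was 130 to 186 FPKM in the controls and 236 to 735 FPKM in the diabetic samples. Most of each control sum was Cd2, the tested T cell marker outside those 16. Cd2 stood at 73.9 to 118 FPKM in the controls and 87.2 to 167 FPKM in the diabetic samples. Diabetic sample 3 had the lowest of those diabetic sums and lay nearest to the controls. In such bulk samples, more cells of a type and more RNA per cell cannot be told apart.

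Insulin and IGF-1 bind receptor tyrosine kinases that phosphorylate adaptor proteins such as IRS-2. The adaptors recruit PI3K, which activates the kinase AKT, and AKT in turn phosphorylates FoxO factors and keeps them out of the nucleus. When insulin is low, FoxO factors enter the nucleus and switch on genes of metabolism, cell cycle arrest and, in lymphocytes, homing. The polyol pathway is a side route of glucose metabolism that opens when glucose is high, and aldose reductase, its first enzyme, turns glucose into sorbitol.

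Some of these genes carry known control elements close to the start of transcription, and RefSeq promoter sequence (250 bases before to 50 bases after the start, GRCm38.p6) was found for 8 of the 10. Insr and Akr1b3 had no entry. Both strands were searched for 4 motifs. These were the FoxO site GTAAACA (in 3.65% of 32851 promoters of this length), the insulin response element CAAAACA (6.28%), the E-box CACGTG (7.15%), and 2 copies of CACGNG set 5 bases apart (0.0487%). The last has the layout of the paired E-box bound by glucose-sensing factors, and its parts can overlap a plain E-box. Only Irs2 and Txnip held any of them, and the stretches around the matches are shown because both genes are textbook targets of this pathway. The capitals mark an E-box followed by an insulin response element, read as TGTTTTG, in Irs2 (chr8:11008930-11009003, minus strand). They mark a FoxO site and then the paired E-box parts in Txnip (chr3:96557806-96557918, plus strand).
Irs2: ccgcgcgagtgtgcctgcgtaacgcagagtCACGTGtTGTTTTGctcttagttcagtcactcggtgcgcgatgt
Txnip: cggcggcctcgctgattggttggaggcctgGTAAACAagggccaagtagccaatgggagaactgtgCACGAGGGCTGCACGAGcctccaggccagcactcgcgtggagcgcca
The FoxO site of Txnip lies 121 to 115 bases before the start, and the paired E-box parts lie 85 to 69 bases before it. A match describes the letters only.

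Of the 10 genes, 1 rose in the diabetic samples (Foxo1) and 1 fell (Akr1b8), each by a little under 2-fold, and the other 8 did not pass the test. The test was limma on log2(FPKM + 1) with Benjamini-Hochberg adjustment over 11193 genes, and all 10 genes passed its filter on low values. Over all tested genes, 4.76% passed in either direction, 2.68% were higher and 2.08% were lower in the diabetic group. An unadjusted p below 0.05 was found for 3 of the 10 genes and for 2511 of all 11193 tested genes. The groups did not overlap for Foxo1 and Akr1b8, and the same held for 9.42% of all tested genes. The median log2 fold change of the 10 genes was -0.12, beside -0.013 for all tested genes.

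**Figure D1:**
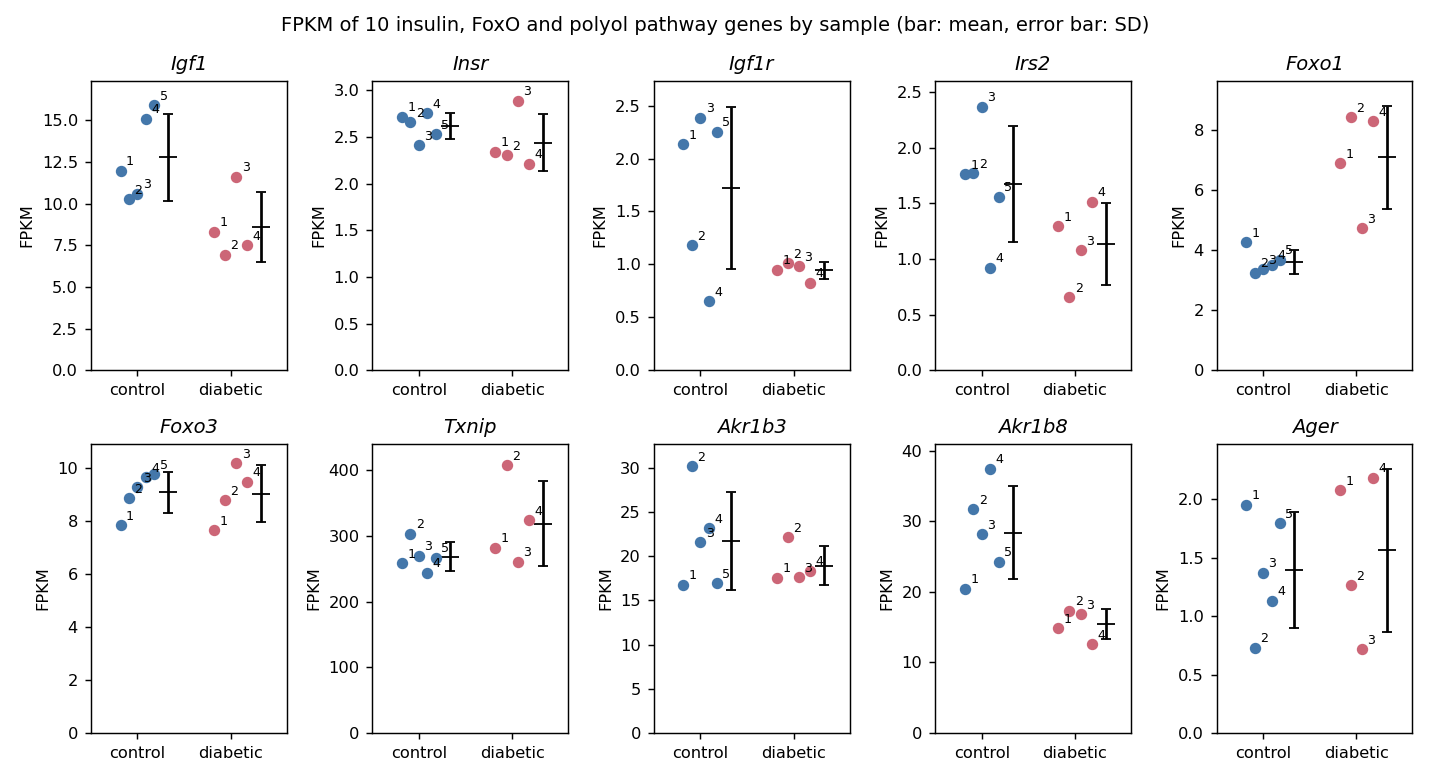
FPKM (vertical axes, each starting at 0) of the 10 genes in every sample, with 1 point per sample and a bar at each group mean and an error bar of 1 SD. Every diabetic point lies above every control point for Foxo1 and below every control point for Akr1b8, and the groups overlap in the other 8 panels.

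In the control samples Txnip stood far above the rest at 268 ± 21.8 FPKM (SD, n = 5). Akr1b8 and Akr1b3 came next and overlapped each other. Igf1, Foxo3, Foxo1 and Insr followed in that order without overlap between neighbours. Igf1r, Irs2 and Ager formed the bottom of the order, with means between 1.40 and 1.72 FPKM that overlapped. Reads were few for these last 3, with 22 to 163 per gene and sample, and their spread was wide relative to their level.

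Igf1 encodes IGF-1, the growth factor that binds the IGF-1 receptor and that macrophages also secrete. Its level was 12.0, 10.3, 10.6, 15.1 and 15.9 FPKM in control samples 1 to 5 and 8.31, 6.93, 11.6 and 7.52 FPKM in diabetic samples 1 to 4. Of the 4 diabetic samples, 3 lay below the lowest control, and diabetic sample 3 lay among the controls. On the log2 scale the change was -0.53 (SE 0.17, 95% interval -0.90 to -0.16) and did not pass (adjusted p = 0.098). Without diabetic sample 3 it was -0.67 and passed (adjusted p = 0.024). Of the 9 fits with a sample left out, this was the only 1 in which Igf1 passed. In the others the adjusted p ran from 0.085 to 0.25. Leaving out diabetic sample 3 also raised the number of all genes that passed from 533 to 1126.

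Insr, the insulin receptor, had a narrow range across the samples. It stood at 2.72, 2.66, 2.41, 2.76 and 2.53 FPKM in the controls and at 2.34, 2.31, 2.89 and 2.22 FPKM in the diabetic samples. Diabetic sample 3 was the highest of all 9 samples and the other 3 were the lowest. For Insr this gave a log2 fold change of -0.08 with an interval from -0.29 to 0.14 (adjusted p = 0.70).

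Igf1r, the receptor of IGF-1, varied more among the controls than between the groups. The control samples had 2.14, 1.18, 2.39, 0.650 and 2.25 FPKM, and the diabetic samples had 0.949, 1.01, 0.981 and 0.828 FPKM. All 4 diabetic values lay below the control mean and close together, but control sample 4 was the lowest of all. This gave a log2 fold change of -0.43 (95% interval -0.89 to 0.02, adjusted p = 0.24). The ratio of Insr to Igf1r within a sample ran from 1.01 to 4.24 in the controls and from 2.28 to 2.94 in the diabetic samples. It was tested as log2(FPKM + 1) of Insr minus that of Igf1r, which shrinks ratios of low genes. On that scale the groups differed by 0.36, and by 0.57 with 0.1 added in place of 1. Neither passed an exact two-sided permutation test (p = 0.17 for both).

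Irs2, the adaptor whose promoter stretch is shown above, had 1.76, 1.77, 2.37, 0.920 and 1.56 FPKM in the controls. The diabetic samples had 1.30, 0.657, 1.08 and 1.51 FPKM, within or below the control range. The log2 fold change was -0.32 (95% interval -0.71 to 0.07, adjusted p = 0.32). The related adaptor Irs4 was listed at 0 in every sample.

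The list of ligands, receptors and binding proteins, which includes Igf1, Insr and Igf1r, held 17 genes. Of these 8 were tested, and 0 passed with limma (3 had an unadjusted p below 0.05, beside 2511 of all 11193 tested genes). With voom weights on reads recovered from the FPKM values, 1 passed. The 1 that passed with voom weights was Igf2r, the receptor that clears IGF-2. Igf2r stood at 19.2 ± 1.36 FPKM (SD, n = 5) in the controls and 13.3 ± 3.13 FPKM (SD, n = 4) in the diabetic samples, a log2 fold change of -0.52 (adjusted p = 0.055, and 0.049 with voom weights). The insulin genes Ins1 and Ins2 were at 0 in all samples.

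Foxo1, the forkhead factor that AKT holds out of the nucleus, was the member that rose. The table places it on chromosome 3 from 52811440 to 52897060 on the plus strand. Its level was 4.25, 3.24, 3.35, 3.51 and 3.67 FPKM in the control samples and 6.89, 8.42, 4.73 and 8.29 FPKM in the diabetic samples. All 4 diabetic samples exceeded all 5 controls, with diabetic sample 3 the lowest of the 4 and control sample 1 the highest control. The means were 3.60 ± 0.396 (SD, n = 5) and 7.08 ± 1.72 FPKM (SD, n = 4), a ratio of 1.96. The log2 fold change was 0.79 (SE 0.15, 95% interval 0.46 to 1.12, adjusted p = 0.019), from 413 to 1121 reads per sample.

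With each sample left out in turn, the call on Foxo1 held in 6 of 9 fits. It was lost without control 3 (adjusted p = 0.0504), without diabetic 2 (0.064) and without diabetic 4 (0.068), while the log2 fold change stayed between 0.71 and 0.94. Without diabetic 3 the log2 fold change was 0.94 and the adjusted p was 0.0012.

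Foxo3, a close relative that AKT controls in the same way, had much the same range in both groups. The controls had 7.86, 8.88, 9.30, 9.68 and 9.79 FPKM and the diabetic samples had 7.66, 8.81, 10.2 and 9.50 FPKM. These ranges nearly coincide. For Foxo3 the log2 fold change was -0.01, with an interval from -0.24 to 0.22 (adjusted p = 0.96). Foxo4, the other relative expressed here, was at 8.72 FPKM in the controls and 9.45 FPKM in the diabetic samples and did not pass (adjusted p = 0.66).

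The ratio of Foxo1 to Foxo3 within each sample removes any difference in scaling between samples, although the 1 added to each FPKM in its test leaves some of it. It was 0.541, 0.365, 0.361, 0.363 and 0.375 in the controls and 0.900, 0.955, 0.464 and 0.873 in the diabetic samples. Diabetic sample 3 lay below control sample 1, and the other 3 diabetic samples lay above all controls. Taken as log2(FPKM + 1) of Foxo1 minus that of Foxo3, the mean difference was 0.80 (p = 0.024, adjusted p = 0.032 over 4 ratios, exact two-sided permutation test). With 0.1 added in place of 1 it was 0.94. The 4 ratios were chosen after the levels of single genes were known. Without control sample 2, 3, 4 or 5 the exact p of this ratio was 0.057, with a log2 difference of 0.77 to 0.78.

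**Figure D2:**
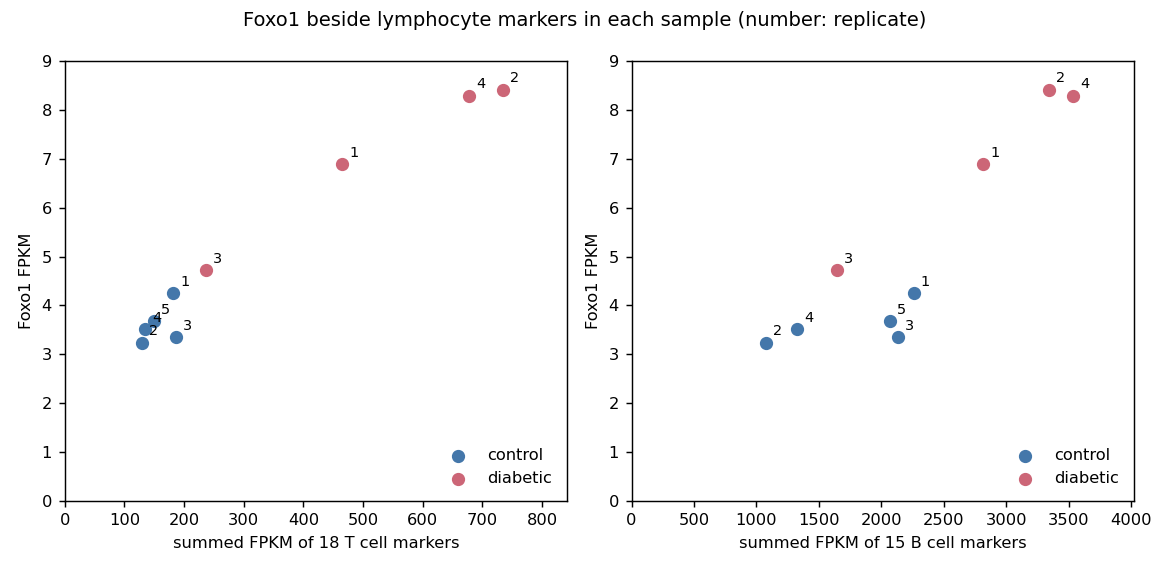
FPKM of Foxo1 (vertical axis) against the summed FPKM of the T cell markers (left) and of the B cell markers (right), with 1 point per sample. The 4 diabetic samples have T cell sums of 236 to 735 FPKM and controls 130 to 186, and diabetic sample 3 is the lowest diabetic sample on all 3 measures.

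Foxo1 and the lymphocyte markers were both higher in the diabetic group. The summed T cell markers were 181, 130, 186, 135 and 149 FPKM in the control samples and 465, 735, 236 and 677 FPKM in the diabetic samples. The order of the diabetic samples by this sum (3, 1, 4, 2) was their order by Foxo1, but the controls did not follow it: control sample 3 had the highest T cell sum and the second lowest Foxo1. The summed B cell markers were 2258, 1074, 2131, 1326 and 2066 FPKM in the control samples. They were 2813, 3340, 1645 and 3531 FPKM in the diabetic samples, so diabetic sample 3 lay within the control range by this sum. Most of each B cell sum was Ighm, Cd79a and Cd79b, which did not pass. For the 4 B cell markers that passed (Fcmr, Fcer2a, Ighd and Vpreb3), diabetic sample 3 lay above every control. Ighd, for example, was 80.3 FPKM in diabetic sample 3 and at most 48.6 FPKM in the controls. Control sample 2 was the lowest control and control sample 1 the highest by both the B cell sum and Foxo1. Control sample 3 was the second highest control by the B cell sum. The summed general macrophage markers overlapped between groups, at 7725 to 11582 FPKM in the controls and 6090 to 10252 FPKM in the diabetic samples. No listed T cell marker was at 0. The part that lymphocyte RNA plays in the level of Foxo1 was not tested.

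Of the genes that FoxO1 switches on in lymphocytes, 9 were listed and 6 were tested, and 1 rose while 0 fell. Ccr7, the chemokine receptor that guides lymphocytes and dendritic cells to lymph nodes, rose from 32.2 ± 5.09 FPKM (SD, n = 5) to 135 ± 50.1 FPKM (SD, n = 4), with a log2 fold change of 1.95 (adjusted p = 0.0063), and the call held in 9 of 9 fits with a sample left out. Klf2, Il7r and S1pr1 did not pass, with means of 496, 21.4 and 36.0 FPKM in the controls and 570, 23.9 and 43.3 FPKM in the diabetic samples. Ccr7 is carried by lymphocytes, so the marker values above apply to it as well.

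Among FoxO target genes outside that list, 31 of 40 were tested and 0 passed with limma or with voom weights. Of all 11193 tested genes 2511 had an unadjusted p below 0.05 with limma, and of these 31 it was 5. Their median log2 fold change was -0.10, and 20 of the 31 were negative, beside a median of -0.013 and 52.3% negative over all tested genes. Pik3ca, which encodes a catalytic subunit of PI3K, was at 12.1 ± 1.65 FPKM (SD, n = 5) in the controls and 8.11 ± 1.63 FPKM (SD, n = 4) in the diabetic samples (adjusted p = 0.059). Bbc3, which encodes the cell death inducer PUMA, was at 13.8 ± 2.89 and 9.35 ± 2.03 FPKM (adjusted p = 0.11).

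By the likeness rule, the genes closest to Foxo1 over the 9 samples, after each group's mean was taken off, were Trib2, Gimap7, Atp1b1, Nemp2 and Cep97. Their Pearson r was 0.987, 0.980, 0.979, 0.979 and 0.974 over 9 samples, the highest of 9669 genes. All genes of a sample share its library and depth. Diabetic sample 3 was the lowest diabetic sample for Foxo1 and for each of these 5 genes, so 1 sample weighs heavily in r. Trib2, for example, was 2.83 FPKM there and 7.43 to 10.9 FPKM in the other diabetic samples. Trib2, a pseudokinase, averaged 1.52 FPKM in the controls and 7.90 FPKM in the diabetic samples, with a log2 fold change of 1.71 (adjusted p = 0.017). Gimap7, a GTPase of lymphocytes, averaged 8.61 and 22.6 FPKM (log2 fold change 1.25, adjusted p = 0.017). Atp1b1, a subunit of the sodium pump, averaged 1.04 and 3.55 FPKM (log2 fold change 1.13, adjusted p = 0.0093). Nemp2 and Cep97 did not pass.

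Among FoxO factors and their regulators, 16 of 19 listed genes were tested, 1 rose (Foxo1) and 1 fell. The gene that fell was Ywhaz, an adaptor that binds phosphorylated FoxO proteins and holds them in the cytoplasm. Its means were 9.40 ± 1.50 FPKM (SD, n = 5) in the controls and 6.19 ± 0.613 FPKM (SD, n = 4) in the diabetic samples, a log2 fold change of -0.52 (adjusted p = 0.039). That call held in 2 of 9 fits with a sample left out, and it was lost with scaling by total reads (adjusted p = 0.063), with voom weights (0.085) and with no filter on low values (0.087). The row was named through a UniProt match.

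Txnip encodes an alpha-arrestin that binds thioredoxin and limits glucose uptake, and glucose is known to induce it. Its promoter stretch above holds the paired E-box parts and a FoxO site. Txnip stood at 258, 303, 270, 244 and 267 FPKM in the controls and 282, 407, 261 and 324 FPKM in the diabetic samples. Diabetic samples 2 and 4 lay above every control, and diabetic samples 1 and 3 lay within the control range. Txnip had a log2 fold change of 0.23 (95% interval -0.08 to 0.53) and did not pass (adjusted p = 0.36), although 10705 to 18768 reads stood behind each value. The order of the diabetic samples by Txnip was the same as by Foxo1 and by the summed T cell markers. The controls did not follow it, since control sample 2 had the highest Txnip and the lowest T cell sum. Most of each control sum was Cd2, so the order of the controls by that sum rests largely on 1 gene. The part of lymphocyte RNA in Txnip was not tested.

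Of the 14 genes of the thioredoxin system, alpha-arrestins and glucose-sensing factors, all tested, 0 passed with limma or with voom weights. With limma, 2 of the 14 had an unadjusted p below 0.05, beside 2511 of all 11193 tested genes. Arrdc4, an alpha-arrestin that glucose induces together with Txnip, was at 9.01 ± 1.50 FPKM (SD, n = 5) in the controls and 6.71 ± 1.80 FPKM (SD, n = 4) in the diabetic samples (adjusted p = 0.20). Mlxip, the glucose-sensing factor MondoA, was at 11.8 ± 1.28 and 14.0 ± 1.29 FPKM (adjusted p = 0.22).

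Akr1b3, aldose reductase, had 16.8, 30.2, 21.6, 23.2 and 16.9 FPKM in the controls and 17.6, 22.1, 17.6 and 18.3 FPKM in the diabetic samples. The diabetic values lay within the control range, and control sample 2 was the highest of all. Akr1b3 had a log2 fold change of -0.16 (95% interval -0.53 to 0.20, adjusted p = 0.60).

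Akr1b8, an aldo-keto reductase of the same family that reduces aldehydes, was the member that fell. The table places it on chromosome 6 from 33240487 to 33256851 on the plus strand. It had 20.4, 31.7, 28.2, 37.4 and 24.3 FPKM in the controls and 14.9, 17.3, 16.8 and 12.6 FPKM in the diabetic samples. Every diabetic sample lay below every control. The means were 28.4 ± 6.58 (SD, n = 5) and 15.4 ± 2.14 FPKM (SD, n = 4), so the control mean was 1.84 times the diabetic mean. The log2 fold change was -0.82 (SE 0.17, 95% interval -1.19 to -0.46, adjusted p = 0.023), from 295 to 788 reads per sample.

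With each sample left out in turn, the call on Akr1b8 held in 5 of 9 fits. It was lost without control 3 (adjusted p = 0.059), diabetic 1 (0.061), diabetic 2 (0.054) or diabetic 4 (0.082), and the log2 fold change stayed between -0.93 and -0.72. Cell type markers moved in both directions beside this fall. Of 9 tested markers of large resident peritoneal macrophages, 8 had a positive log2 fold change (median 0.38). So did 4 of 5 tested monocyte markers (median 0.45), and 0 markers of either list passed. An unadjusted limma p below 0.05 was found for 4 of the resident macrophage markers and 2 of the monocyte markers. Of 4 tested dendritic cell markers, 2 had a positive log2 fold change and 1 passed. That was Batf3, which fell from 26.0 to 11.7 FPKM (adjusted p = 0.025), and the call held in 3 of 9 fits with a sample left out. The summed general macrophage markers overlapped, but 11 of the 12 tested had a negative log2 fold change (median -0.21) and 1 fell. That 1 was Mrc1, the mannose receptor of macrophages, which went from 52.6 ± 12.4 FPKM (SD, n = 5) to 24.5 ± 11.1 FPKM (SD, n = 4), a log2 fold change of -1.13 (adjusted p = 0.033). The call on Mrc1 held in 1 of 9 fits with a sample left out, and diabetic sample 3 (41.0 FPKM) lay within the control range. Summed mast cell markers were 283 to 702 FPKM in the controls and 112 to 378 FPKM in the diabetic samples, and all 6 tested were negative (median -0.56). Summed eosinophil markers were 15.2 to 53.2 FPKM in the controls and 8.56 to 17.8 FPKM in the diabetic samples, and all 3 tested were negative (median -1.27). With limma, 0 of these 9 mast cell and eosinophil markers passed, and 0 passed with voom weights. An unadjusted limma p below 0.05 was found for 5 of the 9, and for 2511 of all 11193 tested genes. The part of these cell types, and of the lymphocytes described above, in the fall of Akr1b8 and in the falls of the pathway genes was not tested.

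**Figure D3:**
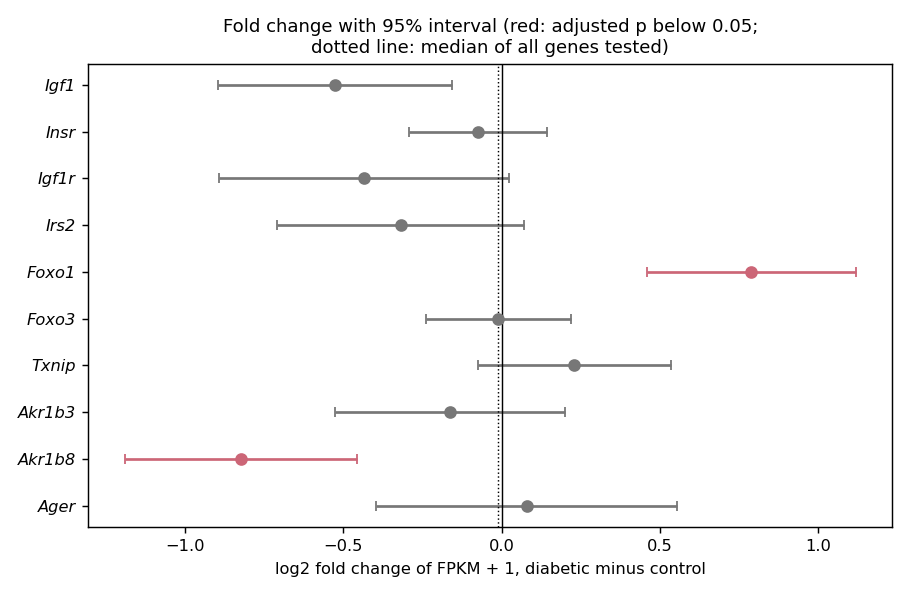
Log2 fold change of the 10 genes (diabetic minus control, on log2(FPKM + 1)), with bars for the 95% interval and a line at the median of all tested genes. Foxo1 at 0.79 and Akr1b8 at -0.82 are the 2 that pass, and Igf1 at -0.53 has an interval that ends below 0 but an adjusted p of 0.098.

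Akr1b8 has related genes with some identical stretches, and reads from those stretches fit more than 1 gene. Its coding sequence has 951 bases, and position by position 84.8% of them match Akr1b10, 84.9% match Akr1b7 and 71% match Akr1b3. Of the 902 words of 50 bases in it, 31 occur in Akr1b10, 3 in Akr1b7 and 0 in Akr1b3. The longest stretch shared with Akr1b10 is shown because reads from it fit both genes. It spans coding bases 475 to 554 in GENCODE M21 (GRCm38, plus strand), at chr6:34363377-34363454 and, in the next exon, chr6:34363722-34363723. The capitals mark the 52 bases that Akr1b7 shares too.
Akr1b8 and Akr1b10: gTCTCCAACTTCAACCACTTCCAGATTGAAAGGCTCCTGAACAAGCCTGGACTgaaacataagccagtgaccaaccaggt
Most of the coding sequence can therefore be told apart by a read of 50 bases. Akr1b10 stood at 7.39 ± 2.31 FPKM (SD, n = 5) in the controls and 6.02 ± 0.487 FPKM (SD, n = 4) in the diabetic samples, a log2 fold change of -0.22 (adjusted p = 0.52). How reads that match several genes were counted is not given in the sources used here.

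**Figure D4:**
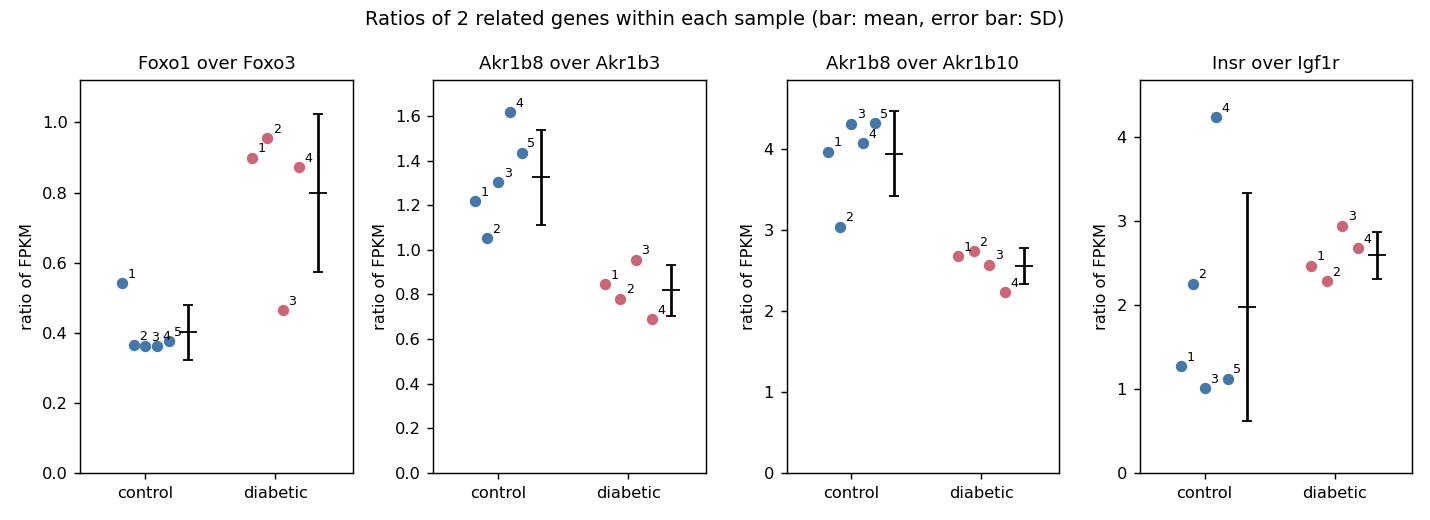
Ratio of FPKM values within each sample for 4 gene pairs (vertical axes, each starting at 0), with 1 point per sample and a bar at each group mean and an error bar of 1 SD. The diabetic ratios of Akr1b8 to Akr1b3 (0.688 to 0.956) and of Akr1b8 to Akr1b10 (2.23 to 2.74) lie below every control ratio, while the other 2 pairs overlap.

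Within samples, the ratios of Akr1b8 to Akr1b3 and to Akr1b10 were lower in the diabetic group. The ratios were chosen after the levels of single genes were known. Akr1b3 and Akr1b10 did not pass, so the ratios rest on the same Akr1b8 values and are no separate support for its fall. Akr1b7 was near 0 and no ratio to it was computed. The ratio of Akr1b8 to Akr1b3 was 1.22, 1.05, 1.30, 1.62 and 1.44 in the controls and 0.845, 0.782, 0.956 and 0.688 in the diabetic samples. The groups did not overlap. The table gives Akr1b3 a length of 8285 bases and Akr1b8 a length of 1499 bases, so the size of the ratio rests on those lengths, and Akr1b3 had more reads in every sample (2086 to 3680). Taken as log2(FPKM + 1) of Akr1b8 minus that of Akr1b3, the mean difference was -0.66 (p = 0.016, adjusted p = 0.032 over 4 ratios, exact two-sided permutation test). The ratio of Akr1b8 to Akr1b10 was 3.04 to 4.32 in the controls and 2.23 to 2.74 in the diabetic samples. The difference was -0.61 on the same log2(FPKM + 1) scale (p = 0.016, adjusted p = 0.032, same exact test).

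The genes most like Akr1b8 across the 9 samples, group means taken off, were Alkbh3, Gng11, Htatip2, Dtd2 and Ndufs8, with Pearson r of 0.969, 0.943, 0.942, 0.939 and 0.933. None of these 5 passed the test between groups. Of 15 listed genes of the polyol pathway, aldo-keto reductases and glyoxalase, 12 were tested, and 0 rose and 1 fell, Akr1b8 itself. Sord, which turns sorbitol into fructose, was at 14.6 FPKM in the controls and 13.9 FPKM in the diabetic samples (adjusted p = 0.86). Khk, which phosphorylates that fructose, was at 24.1 and 21.2 FPKM (adjusted p = 0.65). Glo1, which clears the glycating aldehyde methylglyoxal, was at 8.79 and 8.93 FPKM (adjusted p = 0.94).

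Ager encodes RAGE, the receptor for advanced glycation end products, which accumulate when glucose is high. It was near the lower end of what was measured, at 1.95, 0.730, 1.37, 1.13 and 1.80 FPKM in the controls and 2.08, 1.27, 0.718 and 2.19 FPKM in the diabetic samples. The ranges overlapped nearly in full. The log2 fold change was 0.08, with an interval from -0.40 to 0.55 (adjusted p = 0.86). Each value rested on 22 to 73 reads. Of 19 listed glycation receptors and RAGE ligands 16 were tested, and 0 rose and 1 fell. S100a6, a calcium-binding protein, was at 990 ± 39.7 FPKM (SD, n = 5) in the controls and 723 ± 77.1 FPKM (SD, n = 4) in the diabetic samples (log2 fold change -0.46, adjusted p = 0.038), and that call held in 1 of 9 fits with a sample left out.

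**Figure D5:**
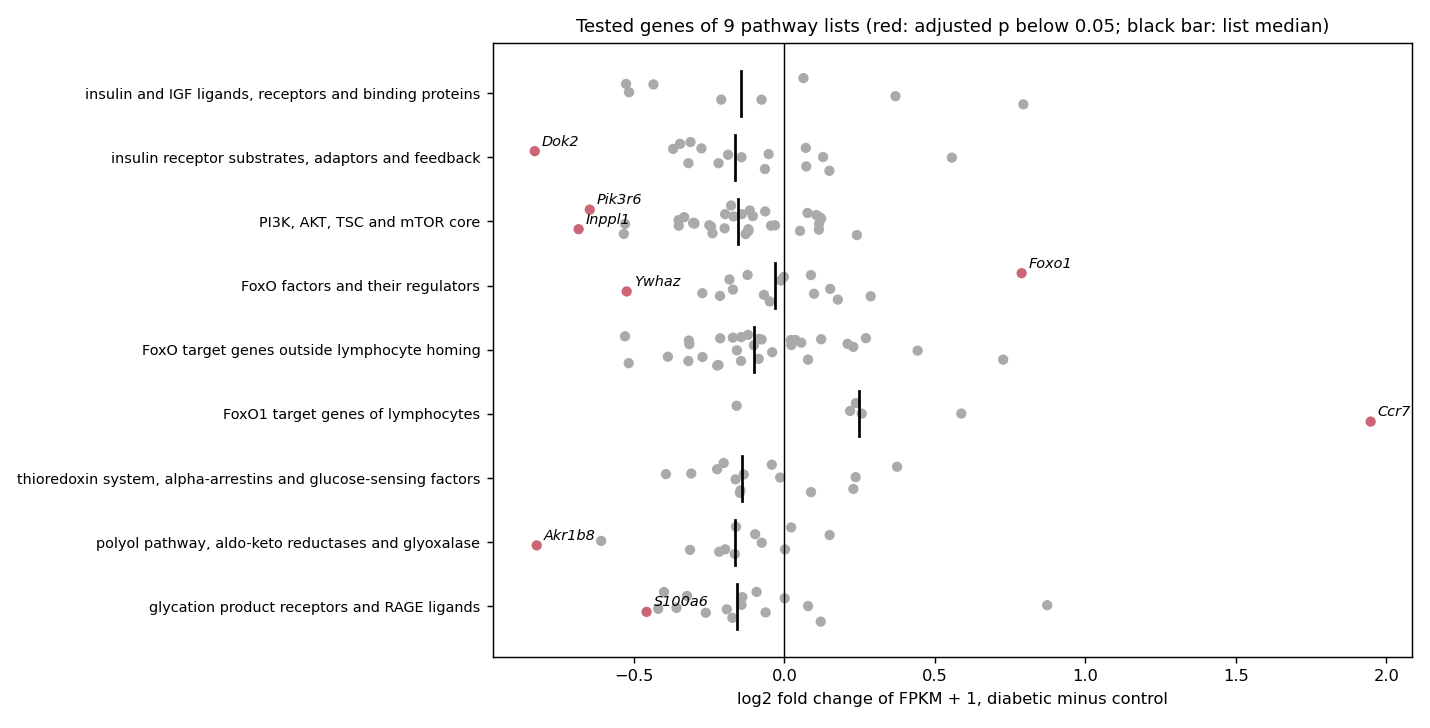
Log2 fold change (diabetic minus control, on log2(FPKM + 1)) of each tested gene in the 9 pathway lists, with the genes that pass marked and a bar at the median of each list. The medians run from -0.16 to 0.25, and Ccr7 at 1.95 lies farthest to the right.

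In the lists of receptor substrates and adaptors and of the PI3K, AKT, TSC and mTOR core, 3 genes fell and 0 rose. Among receptor substrates and adaptors 16 of 20 listed genes were tested, and the 1 that fell was Dok2, a docking protein that restrains signalling from tyrosine kinases. Dok2 was at 156 ± 17.1 FPKM (SD, n = 5) in the controls and 87.3 ± 7.27 FPKM (SD, n = 4) in the diabetic samples, a log2 fold change of -0.83 (adjusted p = 0.0054). In the PI3K, AKT, TSC and mTOR core 34 of 36 were tested, 2 fell, and 26 had a negative log2 fold change, with a median of -0.16. Over all tested genes 52.3% were negative and 2.08% fell. Pik3r6, a regulatory subunit of the PI3K of leukocytes, fell from 20.5 ± 1.16 to 12.8 ± 1.59 FPKM (log2 fold change -0.65, adjusted p = 0.0088). Inppl1, the lipid phosphatase SHIP2 that removes the product of PI3K, fell from 25.7 ± 1.79 to 15.9 ± 3.67 FPKM (log2 fold change -0.68, adjusted p = 0.023). The calls on Dok2 and Pik3r6 held in 9 of 9 fits with a sample left out, and that on Inppl1 in 6 of 9.

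Over the 9 lists together, 148 distinct genes were tested, 2 rose and 6 fell, or 5.41%, beside 4.76% of all tested genes. Without the 10 members it was 1 that rose and 5 that fell of 138, or 4.35%, and the median log2 fold change of the 148 was -0.13. These shares are near the background.

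Some members overlap antisense genes in the table, and no source used here says whether counting used the strand. The most reads in any sample were 62 for Igf1os on Igf1 and 24 for Gm15441 on Txnip. They were at most 3 for the opposite-strand neighbours of Foxo1, Insr, Irs2 and Akr1b3, and 6 for a small unnamed gene model inside Foxo1. Reads of such pairs cannot be told apart if strand was not used.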

How the data were processed

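RNA of 9 samples (5 control, 4 diabetic) was made into libraries with a SMARTER mRNA-seq kit, per the labels' protocols. The authors deposited 1 table of FPKM values per gene. The submitters' processing notes name the builds GRCm38 and mm10, while the identifiers are those of a C57BL/6NJ gene set. Of 24961 names shared with RefSeq GRCm38.p6, 0 had the same start, so gene positions are given as in the table with no build. No source used here names the aligner or the counter. FPKM times gene length gave whole reads for 100.0% of values (tolerance 0.05), and the authors' values were already scaled between samples. All 9 sample columns matched a label. The name column named 30409 genes, a UniProt match named 479 more, and 52 repeated names were left as identifiers.

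A gene was kept when 4 or more samples reached an FPKM of 1 (11193 genes). Values were tested as log2(FPKM + 1) with limma 3.58.1 in R 4.3.3 (lmFit, eBayes with trend and robust settings) at an adjusted p below 0.05. Fold changes on this scale understate the change of low genes. Alternatives were another pseudocount, no filter, a filter at FPKM of 5, scaling by total reads, voom weights on recovered reads, sample weights, eBayes without trend and robust settings, a replicate block, and leaving out each sample. The fit was tested on simulated data. No member fell under the filter, so the permutation test planned for such members was not run.

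Named were the 10 members, in each list up to 4 genes that passed or, where none did, the 2 with the smallest p, and the 5 genes most like each member that passed. Other names were chosen after their values were seen. A gene of the lists is not reported here and was left out of their counts. Members and lists were chosen with earlier results of these data known.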

Additional observations from a re-analysis of the deposited data

Results flagged for a closer look

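In the diabetic group, sample 2 stood apart for Akr1b3, at 22.1 FPKM, while the other 3 lay between 17.6 and 18.3 FPKM. Its gap to the nearest of the others was 0.833 of the whole range of the group. Diabetic sample 3 stood apart for Dok2, at 98.2 FPKM, while the other 3 lay between 82.8 and 84.4 FPKM, a gap of 0.896 of the range. The Akr1b3 value lies within the control range and the Dok2 value below it. In all, 42 groups of samples were searched for such a value, and chance marks about 1 in 20.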

How the results depend on the processing

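The number of genes that passed was 533, of which 56.3% were higher in the diabetic samples. It was 183 with no filter on low values, 372 with the filter at FPKM of 5, 1304 with sample weights, and 115 (without diabetic 4) to 1126 (without diabetic 3) with 1 sample left out. Of the members, 2 passed, against 1 with the filter at FPKM of 5, which removes Foxo1, 0 with no filter, 3 with sample weights, and 0 to 3 with 1 sample left out. Of the pathway list genes 8 passed, against 3 with no filter and 3 to 16 with 1 sample left out. With no filter the adjusted p of Foxo1 was 0.052 and that of Akr1b8 was 0.061. The log2 fold change of Foxo3, -0.01, turned positive with scaling by total reads (0.023), with voom weights (0.026) and without control 4, control 5 or diabetic 1, and ran from -0.066 to 0.057 with 1 sample left out. That of Ager, 0.08, turned negative without control 2, diabetic 1 or diabetic 4, and ran from -0.041 to 0.256 with 1 sample left out. The cause was not tested. With the replicate number as a block, the log2 fold change of Foxo3 was 0.013, and 62 genes, 0 members and 1 pathway list gene passed, but the labels do not say that a number marks a shared litter or day. Same-numbered samples deviated with correlations of 0.023, 0.16, -0.26 and -0.18, and so few pairs cannot show whether they shared a litter or day. Array weights were lowest for diabetic 3 (0.438) and control 2 (0.474). Reads were fewest for Igf1r, Irs2 and Ager, at 22 to 163 per sample, and how far depth sets their spread was not tested. A mixed cell population limits what a level says of any 1 cell type.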

Other observations

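Several other pathway genes stood out by level without passing limma's test, and they were chosen after their values were seen. Igfbp4, a binding protein that holds back IGF-1, averaged 12.8 FPKM in the controls and 24.0 FPKM in the diabetic samples (adjusted p = 0.15). Cdkn1b, the cell cycle inhibitor p27 and a FoxO target, averaged 13.6 and 22.5 FPKM (adjusted p = 0.11). S100a4, a calcium-binding protein of leukocytes, averaged 136 and 249 FPKM (adjusted p = 0.075). Dcxr, a reductase of xylulose and dicarbonyls, averaged 37.1 and 24.0 FPKM (adjusted p = 0.094).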
